A study of Mus musculus with 38 samples.

Results

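The muscle miRNAs examined here were 6 hairpins, mmu-mir-143, mmu-mir-145a, mmu-mir-1a-1, mmu-mir-1a-2, mmu-mir-133a-1 and mmu-mir-133a-2, measured in sperm of 38 mice. They were picked by name from the miRNA entries among reads that matched the mouse genome. No measured value entered the rule, but it was set when other results of these data were known. All 6 had reads, out of 689 miRNAs and 638403 small RNA features with a genome-matching read. The files counted reads per hairpin, so the 2 arms of a hairpin could not be told apart.

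Sperm small RNA was sequenced from C57BL6/J males in 4 diet groups, named by the diet before weaning and the diet after it. Dams received a control diet (CT, 20% protein) or a protein-restricted diet (PR, 8% protein) from the vaginal plug at 0.5 days post coitum to weaning at 21 days, and their sons then received either diet until they were killed at 11 to 13 weeks. There were 10 CTCT, 9 CTPR, 9 PRCT and 10 PRPR mice from 21 litters, each a separate animal, so that CTPR mice met the low-protein diet only after weaning, PRCT mice only before it and PRPR mice throughout. The question for these miRNAs was whether their level differed with the diet at either stage, and between littermates on different diets. Sperm swam out of an epididymis cut up in medium, and the study assessed purity by methylation of imprinted regions and by RNA traces of representative samples. In such a bulk sample, fewer cells of a type and less RNA per cell cannot be told apart.

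miRNAs are short RNAs cut from hairpin precursors, and they lower the output of mRNAs that pair with their seed, bases 2 to 8. mir-143 and mir-145 are made from a shared primary transcript and are known as the abundant miRNAs of smooth muscle, the tissue that also forms the wall of the epididymal duct and of blood vessels. mir-1 and mir-133 are made together from paired hairpins and are the classical miRNAs of heart and skeletal muscle. Each of mir-1a and mir-133a has copies at more than one place in the genome.

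The mature RNAs of the striated muscle miRNAs with an entry in RefSeq (build GRCm38.p6) are shown. They give the seed of the 5′ arm of mir-1a-1 and those of both arms of mir-206, a relative of mir-1, and of mir-133b, a relative of mir-133a. Counts of these relatives are set beside those of the members further on. Of the 6 members, 1 matched an entry, for its 5′ arm. Letters in capitals are the seed.
mmu-miR-1a-1-5p: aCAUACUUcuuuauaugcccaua
mmu-miR-206-5p: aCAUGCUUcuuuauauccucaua
mmu-miR-206-3p: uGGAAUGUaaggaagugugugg
mmu-miR-133b-5p: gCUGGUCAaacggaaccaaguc
mmu-miR-133b-3p: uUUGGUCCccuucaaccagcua
The 5 seeds shown all differed. The 3′ arm of mir-1a-1 and both arms of mir-133a had no entry, so their seeds could not be compared with these. The first RNA lies at chr2:180389057-180389079 on the plus strand, within Mir1a-1.

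Libraries held 4465281 to 7612603 reads that matched the genome (median 6342719). Reads assigned to miRNAs were 7805 to 378918 per mouse, or 0.158 to 5.55% of the genome-matching reads, so the miRNA class itself varied strongly between mice. Levels are therefore given on 2 scales, as reads per 1000000 genome-matching reads (RPM) and as a percentage of the miRNA reads of the same mouse. A count of 0 allowed up to 3 reads, which was 0.394 to 0.672 RPM in single mice. Such limits cover counting error only.

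mir-143 was the second most abundant miRNA of these sperm samples, behind mmu-mir-148a, and mir-145a, mir-1a and mir-133a followed in descending order. mmu-mir-143 averaged 1565 RPM over the 38 mice, and it ranked 2 to 5 among the miRNAs of each mouse and among the first 3 in 36 of 38. mmu-mir-145a averaged 132 RPM, and its overall rank was 23. mmu-mir-1a-1 and mmu-mir-1a-2 averaged 40.8 and 39.2 RPM, with overall ranks of 53 and 55. mmu-mir-133a-2 and mmu-mir-133a-1 averaged 7.82 and 6.32 RPM, with overall ranks of 129 and 138. All 38 mice had reads of mmu-mir-143 and mmu-mir-145a. The copies of mir-1a and mir-133a had a read in 34 or 35 mice each. These ranks are of single hairpins and depend on how reads were divided between copies.

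mmu-mir-143 differed far more between mice than between diets. In CTCT mice its lowest, median and highest levels were 55.9, 1343 and 2732 RPM. In CTPR mice they were 63.5, 2272 and 7579 RPM. The CTPR median was the highest of the 4 groups, but its range enclosed that of CTCT except at the very lowest mouse. PRCT mice had 350, 1108 and 2969 RPM. PRPR mice had 226, 993 and 3077 RPM. The 4 ranges overlapped, and the highest CTPR mouse, 57P1, stood well above the next at 3569 RPM.

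**Figure D1:**
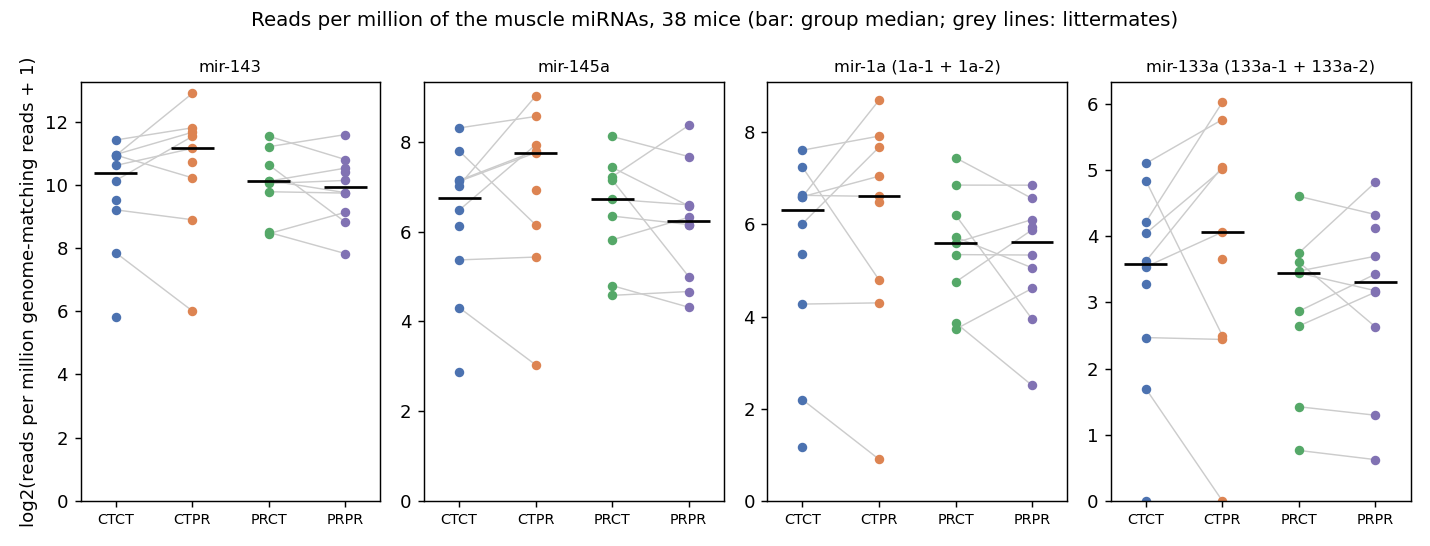
Reads per 1000000 genome-matching reads (RPM, vertical axis, log scale) of mir-143, mir-145a, mir-1a and mir-133a in the 4 diet groups (horizontal axis), 1 point per mouse, with the copies of mir-1a and of mir-133a summed. Bars are group medians and grey lines join littermates. For mir-143 the medians are 1343, 2272, 1108 and 993 RPM from CTCT to PRPR, within ranges that overlap.

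As a share of miRNA reads, mmu-mir-143 was much steadier. It made up 3.53, 8.57 and 12.1% of miRNA reads in CTCT mice (lowest, median and highest) and 3.74, 9.37 and 13.7% in CTPR mice. The corresponding values were 7.19, 9.16 and 11.7% in PRCT mice and 6.56, 8.15 and 9.78% in PRPR mice. The lowest shares were those of mouse 07C3 in the CTCT group and mouse 02A8 in the CTPR group, which also had the lowest percentages of miRNA reads in the library of their groups, 0.158 and 0.170%. Over all mice the coefficient of variation was 88.5% on the scale of genome-matching reads and 22.8% as a share of miRNA reads, and the highest mouse exceeded the lowest by 136-fold and 3.87-fold respectively. Over the 200 miRNAs tested, the median coefficients of variation were 78.9 and 51.5%.

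mmu-mir-145a, made from the same transcript as mir-143, showed a like pattern at a lower level. Its lowest, median and highest levels were 6.35, 109 and 317 RPM in CTCT mice and 7.18, 216 and 518 in CTPR mice. In PRCT mice they were 22.9, 105 and 277 RPM, and in PRPR mice 18.9, 74.6 and 329. The groups overlapped, with the highest median again in CTPR. Its share of miRNA reads was 0.401, 0.694 and 1.06% in CTCT mice, 0.388, 0.767 and 0.997% in CTPR mice, 0.528, 0.679 and 1.19% in PRCT mice and 0.399, 0.555 and 1.05% in PRPR mice. Its coefficient of variation was 87.5% on the first scale and 29.6% as a share.

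The 2 copies of mir-1a divided their reads in a different way in each mouse. Over all mice mmu-mir-1a-1 had 9993 reads and mmu-mir-1a-2 had 9787. In single mice, however, the share of mmu-mir-1a-1 ran from 0 to 100% with a median of 50.3%. In 4 mice it was 0% and in 4 others 100%. The same full range was seen in the 31 mice with at least 100 mir-1a reads, for which counting error alone would give an SD near 2.34 percentage points at an even split, against an observed SD of 28.6 points. mmu-mir-133a-1 made up 0 to 100% of mir-133a reads in the 36 mice with any (median 46.7%, 1550 reads against 1934 for mmu-mir-133a-2), and 26 to 100% in the 12 mice with at least 100 reads. Wide splits were not particular to these members. Among 19 miRNAs with exactly 2 copies of a mean of at least 10 reads each, mir-1a had the largest SD and mir-133a the third, at 21.1 points, and mmu-mir-26a lay between them at 23.3 points. The smallest, that of mmu-mir-196a, was 9.40 points, against 4.07 points by counting error. How reads shared by copies were assigned is not given in the sources used here, so levels of a single copy are uncertain, and the copies are also given summed. Summing was chosen after the data were seen.

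**Figure D2:**
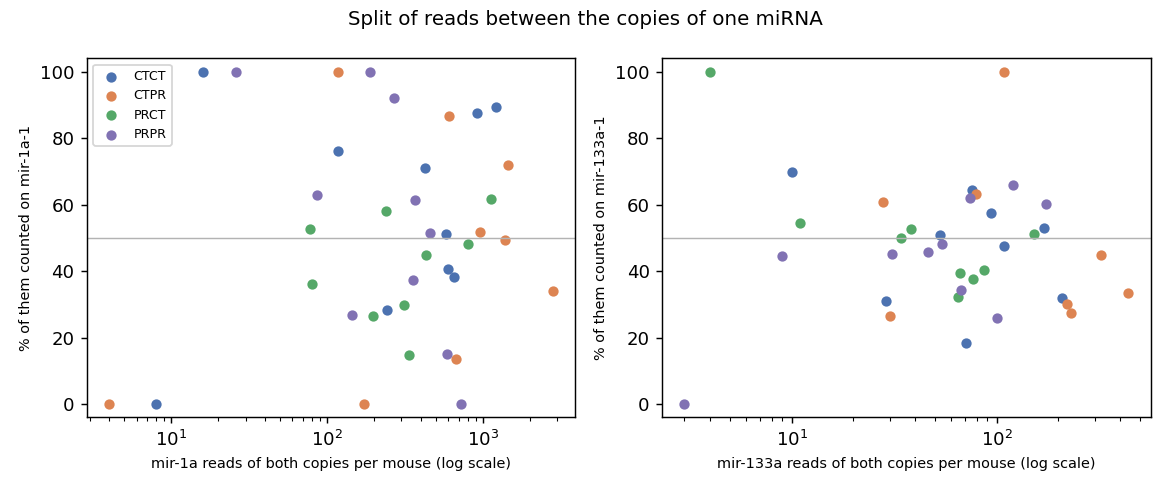
Share of mmu-mir-1a-1 in the mir-1a reads and of mmu-mir-133a-1 in the mir-133a reads (vertical axis, percent) against the number of reads of both copies (horizontal axis, log scale), 1 point per mouse. Shares of mmu-mir-1a-1 run from 0 to 100% also among mice with at least 100 reads.

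mir-1a, the classical striated muscle miRNA, was detected in every mouse once its copies were summed. In CTCT mice the lowest, median and highest levels were 1.24, 79.9 and 194 RPM. The CTPR mice had 0.870, 96.5 and 413 RPM. Values were 12.2, 47.6 and 173 in PRCT mice and 4.68, 48.7 and 114 in PRPR mice. Both groups from CT dams had higher medians than both groups from PR dams, and their ranges overlapped. As a share of miRNA reads the medians were 0.475, 0.437, 0.413 and 0.375% in the order CTCT, CTPR, PRCT and PRPR, within an overall range of 0.0512 to 0.744%. Taken singly, mmu-mir-1a-1 had medians of 38.3, 67.9, 14.1 and 17.9 RPM in that order, and mmu-mir-1a-2 had 19.6, 63.1, 33.5 and 20.2, so the 2 copies did not order the groups alike.

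mir-133a, which is made together with mir-1a and has known roles in muscle growth and differentiation, was the least abundant. Summed, its lowest, median and highest levels were 0, 11.0 and 33.3 RPM in CTCT mice and 0, 15.7 and 64.2 in CTPR mice. PRCT mice had 0.696, 9.89 and 23.3 RPM, and PRPR mice 0.540, 8.91 and 27.2. Mouse 07C3 in CTCT and mouse 02A8 in CTPR had no read of either copy, and the groups overlapped. Medians of its share of miRNA reads were 0.0808, 0.0648, 0.0657 and 0.0827% in the order CTCT, CTPR, PRCT and PRPR. The medians of mmu-mir-133a-1 were 5.86, 8.61, 3.32 and 3.74 RPM in that order, and those of mmu-mir-133a-2 were 5.42, 4.25, 6.31 and 4.42.

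**Figure D3:**
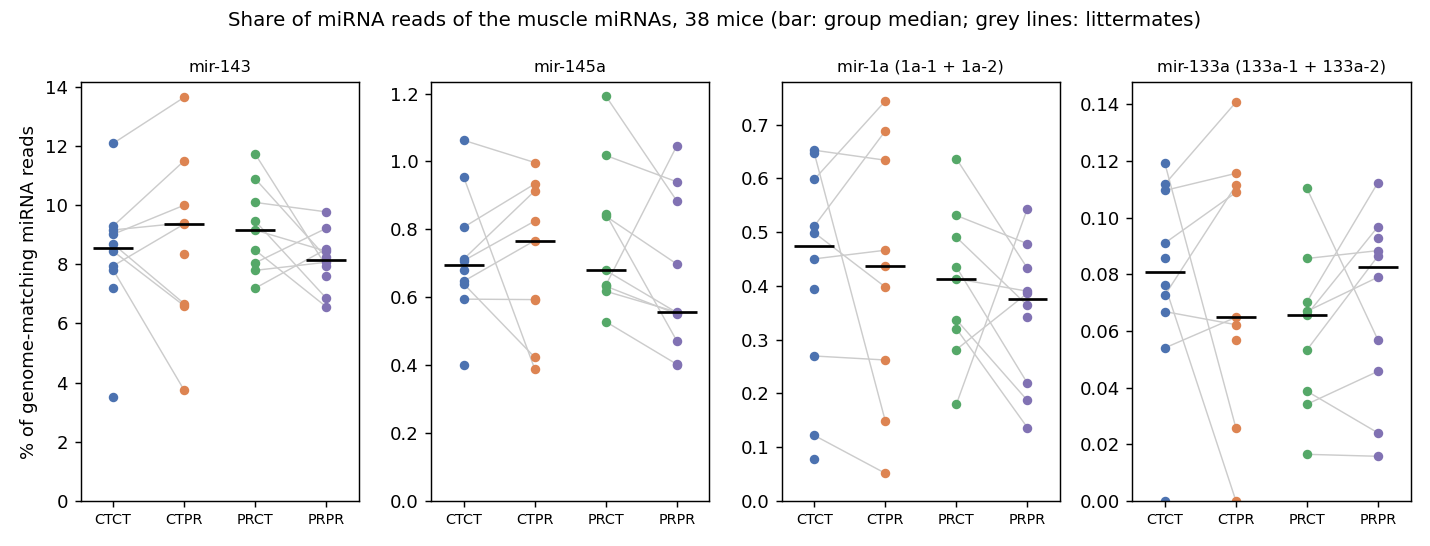
Percentage of genome-matching miRNA reads (vertical axis, linear from 0) taken by mir-143, mir-145a, mir-1a and mir-133a, with copies summed, in the 4 diet groups, 1 point per mouse. Bars are group medians and grey lines join littermates. The median share of mir-143 lies between 8.15 and 9.37% in every group.

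None of the 6 miRNAs passed the test in any diet comparison. With edgeR's quasi-likelihood test and the genome-matching reads as library size, 7002 features with a mean of at least 10 reads were fitted together, all 6 members among them, and p-values were adjusted over all 7002 by Benjamini-Hochberg. For CTPR against CTCT, 0 of 6 members and 0.0714% of all features had an adjusted p under 0.05. mmu-mir-143 was 0.99 higher on the log2 scale in CTPR (SE 0.57, unadjusted p = 0.0918, adjusted p = 0.728). mmu-mir-145a was 0.79 higher (SE 0.62, adjusted p = 0.769). Neither difference exceeded the spread between mice. The summed copies gave 0.83 for mir-1a (SE 0.72, adjusted p = 0.791) and 0.88 for mir-133a (SE 0.80, adjusted p = 0.80). Single copies ranged from 0.37 for mmu-mir-1a-1 (SE 1.00) to 1.45 for mmu-mir-1a-2 (SE 1.03), so all 6 values were positive, though that of mmu-mir-1a-1 was -0.21 with TMM normalisation and mmu-mir-1a-1 and mmu-mir-133a-2 were negative under some other settings. The median was 0.87 over the 6 members, 0.79 over the 200 miRNAs tested and 0.67 over all 7002 features. TMM brought the median of all features to 0.15 and mmu-mir-143 to 0.29. The percentage of miRNA reads in the library had a median of 2.43% in CTPR and 1.43% in CTCT mice. Without mouse 57P1 the difference of mmu-mir-143 was 0.58, and without 47I1, a CTCT mouse, it was 1.18.

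Measured against the miRNA total, the CTPR differences were close to 0. mmu-mir-143 differed by 0.08 on the log2 scale (SE 0.17), mmu-mir-145a by -0.01 (SE 0.21), mir-1a summed by 0.01 (SE 0.33) and mir-133a summed by -0.02 (SE 0.35). Of the 200 miRNAs tested on this scale, 0% had an adjusted p under 0.05 in any of the 5 contrasts, members included. In the main fits no member had an unadjusted p under 0.05 on either scale, a count that was not set beside that of all features and is not read further. In permutation tests over mice, two-sided and exact, the CTPR and CTCT means of mmu-mir-143 gave p = 0.369 as log2 RPM and p = 0.683 as a share, with a difference of 0.489 percentage points.

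**Figure D4:**
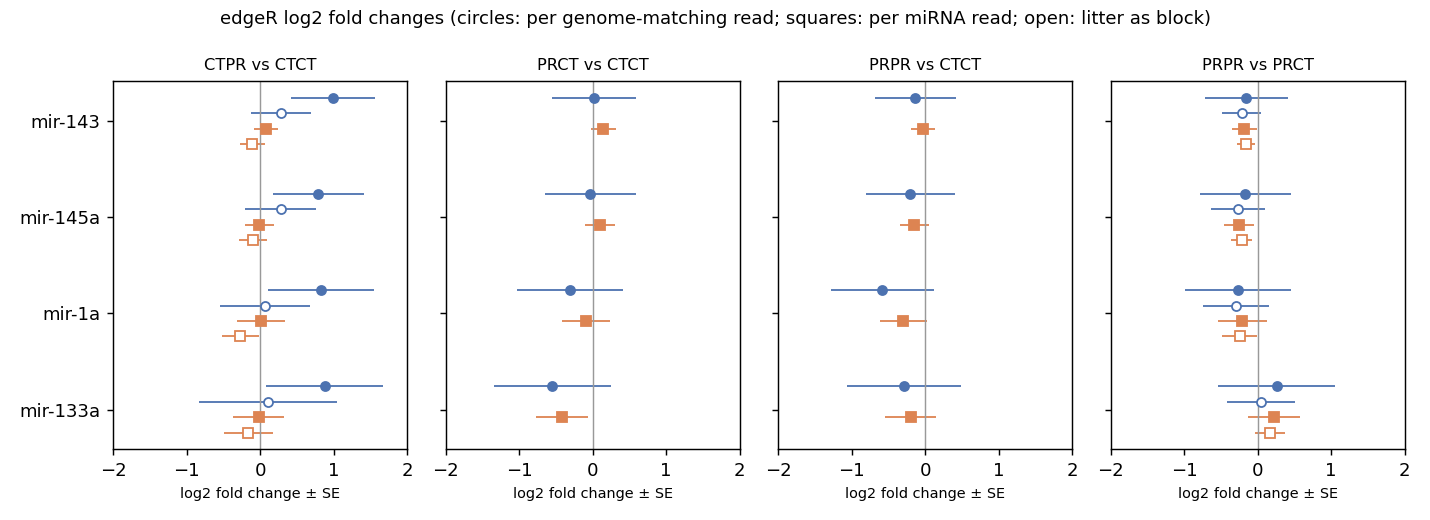
Log2 differences between diet groups of mir-143, mir-145a, mir-1a and mir-133a with their standard errors, by edgeR, on the scale of genome-matching reads and on that of miRNA reads. Differences of CTPR from CTCT of 0.79 to 0.99 on the first scale are within 0.08 of 0 on the second.

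No member passed the test for restriction before weaning alone. For PRCT against CTCT, 0 of 6 members and 0% of the features were called. The log2 differences were 0.02 for mmu-mir-143 (SE 0.57), -0.03 for mmu-mir-145a (SE 0.62), -0.31 for mir-1a summed (SE 0.72) and -0.55 for mir-133a summed (SE 0.80). All these standard errors were at least as large as the differences. On the miRNA scale mmu-mir-143 was 0.15 higher (SE 0.17, adjusted p = 0.920), and mir-133a summed differed by -0.42 (SE 0.36, adjusted p = 0.910).

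The same held for restriction both before and after weaning. For PRPR against CTCT, 0 of 6 members and 0.0143% of the features were called. mmu-mir-143 differed by -0.14 on the log2 scale (SE 0.55), mmu-mir-145a by -0.20 (SE 0.60), mir-1a summed by -0.58 (SE 0.70) and mir-133a summed by -0.29 (SE 0.78). mmu-mir-1a-1 had the lowest single value, -1.36 (SE 0.99, adjusted p = 1), while the other copy, mmu-mir-1a-2, was at 0.28 (SE 0.99). The copies thus differed in sign, and neither passed the test.

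Among sons of PR dams, the 2 diets after weaning gave differences within the spread between mice. For PRPR against PRCT, 0 of 6 members and 0.0143% of the features were called. The log2 differences were -0.16 for mmu-mir-143 (SE 0.57), -0.17 for mmu-mir-145a (SE 0.62), -0.27 for mir-1a summed (SE 0.72) and 0.26 for mir-133a summed (SE 0.80). The share of mmu-mir-143 was 1.09 percentage points lower in PRPR (8.12% ± 0.975, SD, n = 10) than in PRCT (9.21% ± 1.5, SD, n = 9), with an exact permutation p = 0.0771. That was its lowest permutation p in these 4 group comparisons.

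Whether the post-weaning diet acted differently by dam's diet was tested as an interaction, the PRPR minus PRCT difference less the CTPR minus CTCT difference. Of all features 0.957% and of the members 0 of 6 were called. The value for mmu-mir-143 was -1.14 (SE 0.80, adjusted p = 1.00) and that for mmu-mir-145a was -0.96 (SE 0.88). On the miRNA scale they were -0.26 (SE 0.24) and -0.24 (SE 0.29). mir-1a and mir-133a summed had interactions of -1.10 (SE 1.01) and -0.62 (SE 1.13).

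The standard errors set what could have been seen. On simulated counts for CTPR against CTCT over 7002 features, no change of 1 or 2 on the log2 scale was recovered, and 26.5 and 44.5% of changes of 3 and 4 were, with 25 of 78 and 49 of 138 calls false. The few miRNAs among the changed features were recovered in 0 of 6, 0 of 4, 4 of 6 and 5 of 7 cases at changes of 1, 2, 3 and 4. For 200 simulated miRNAs with the miRNA total as library size, 37.5% of changes of 1 and 97.5% of changes of 2 were recovered. Simulated features were drawn independently of each other, whereas the members varied together from mouse to mouse. The percentages hold over all changed features, most of them not miRNAs in the first simulation, and are not those of any single member.

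Littermates on different diets differed in both directions. In 8 litters with a CTCT and a CTPR mouse, mmu-mir-143 was higher in the CTPR mouse in 5. The lowest, median and highest log2 differences were -1.84, 0.46 and 1.96, and the mean was 0.26 (SE 0.43, exact sign-flip permutation p = 0.547). Litter 57P had the largest increase, from 1944 to 7579 RPM, and litter 02A the largest decrease, from 230 to 63.5. mmu-mir-145a was higher in 6 of 8, with a mean of 0.27 (SE 0.44, exact permutation p = 0.555). mir-1a summed had a mean of 0.10 (SE 0.52) and mir-133a summed of 0.17 (SE 0.52), each higher in 5 of 8. With the groups of 47I1 and 47I2 exchanged, as the study's list has them, the means were 0.17 for mmu-mir-143, 0.20 for mmu-mir-145a, 0.02 for mir-1a and -0.0006 for mir-133a, higher in 4, 5, 4 and 4 of 8 litters. Fitting litter as a block in edgeR, in these 8 litters alone, gave 0.28 for mmu-mir-143 (SE 0.41) and 0.28 for mmu-mir-145a (SE 0.48). It called 0 members and 0 features. The 0.99 and 0.79 found without the block came from all mice, so the fits differed in their mice as well as in the block.

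In 9 litters of PR dams, mmu-mir-143 was higher in the PRPR mouse in 4, with a mean log2 difference of -0.23 (SE 0.26, exact permutation p = 0.445). Litter 51O had the largest decrease, from 1584 to 451 RPM. mmu-mir-145a was higher in 3 of 9 (mean -0.28, SE 0.31, exact permutation p = 0.418). mir-1a summed was higher in 3 of 9 (mean -0.30, SE 0.37), and mir-133a summed in 4 of 9 (mean 0.06, SE 0.20). As a share of miRNA reads, mmu-mir-145a was lower in the PRPR mouse in 8 of 9 litters, by a mean of 0.0982 percentage points (SE 0.0732, exact permutation p = 0.227). The smallest p these tests could give was 0.00781 for 8 litters and 0.00391 for 9.

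The 4 miRNAs rose and fell together from mouse to mouse, across families as well as within them. With copies summed, Pearson's r of log2 RPM over 38 mice was 0.966 between mir-143 and mir-145a, 0.943 between mir-1a and mir-133a, and 0.971 between mir-143 and mir-1a. Differences between these correlations were not tested. Spearman's rho was 0.948, 0.945 and 0.954 for the same pairs. All 6 pairs had r of 0.940 to 0.971, adjusted permutation p = 1.69e-05 over 22 relations from a p of 1e-05, the smallest that the resamples could give. Without the 2 mice farthest from the median r was 0.921 to 0.958, and within single diet groups it was 0.836 to 0.991. Mice of a litter are not independent, so these p-values are too small. Over 17 litters, the differences between littermates correlated at r of 0.805 for mir-1a with mir-133a, the lowest of the 6 pairs, to 0.911 for mir-143 with mir-145a, the highest, with 0.824 for mir-143 with mir-1a.

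**Figure D5:**
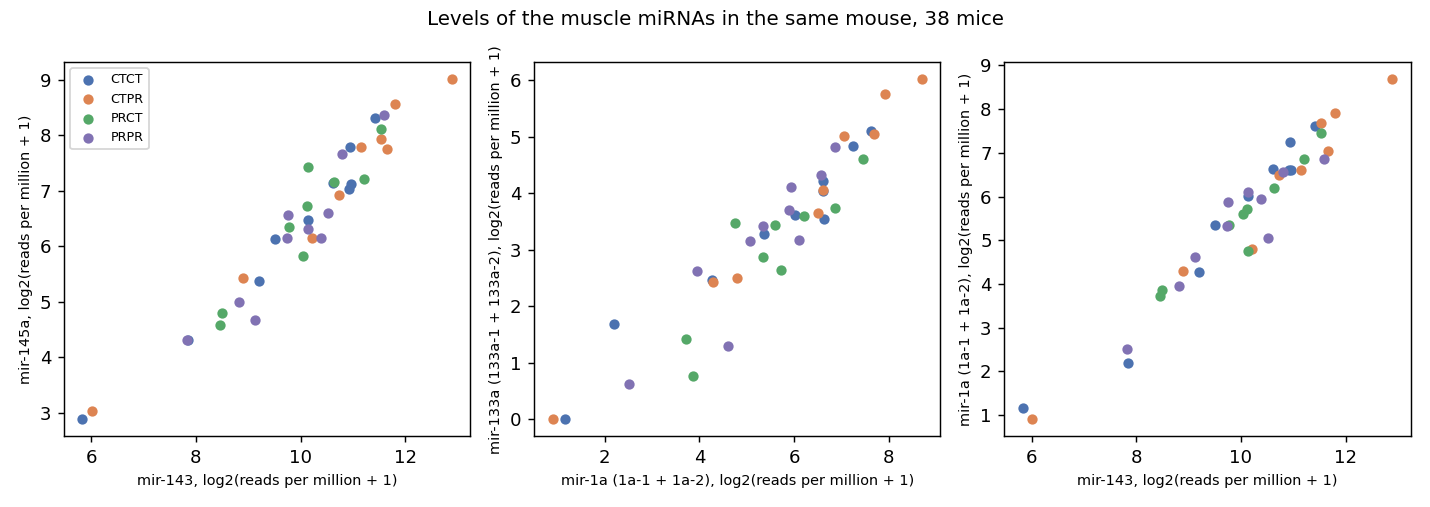
Levels of pairs of muscle miRNAs in the same mouse, as log2(RPM + 1) on both axes, 1 point per mouse, coloured by diet group. In all 3 pairs (mir-143 and mir-145a, mir-1a and mir-133a, mir-143 and mir-1a) r is over 0.94 and the groups lie along 1 line.

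Part of this was shared with all miRNAs. The level of mir-143 correlated with the miRNA percentage of the library at r = 0.871 (rho = 0.980), of which it is itself a part, and the other 3 at r of 0.850 to 0.885. With the piRNA percentage, r was 0.735 for mir-143, 0.734 for mir-145a, 0.663 for mir-1a and 0.704 for mir-133a. With snoRNA it was between -0.276 and -0.371. Of all 16 relations with the piRNA, cellular tRNA, snoRNA and miRNA percentages, 13 had an adjusted permutation p under 0.05. Measured against miRNA reads, the pairs still correlated, at r of 0.546 to 0.823 (highest adjusted permutation p = 0.000385) and rho of 0.517 to 0.711. This was not particular to the members, as some other miRNAs, given further on, had a higher rho with a member. Within diet groups r of the pairs ran from -0.155 to 0.940, and mir-143 with mir-145a, at r = 0.568 over all mice, gave 0.741 in CTCT, 0.809 in CTPR, 0.001 in PRCT and 0.391 in PRPR. Relative to the miRNA total, r between littermate differences was 0.399 to 0.712. The shares themselves rose with the miRNA percentage of the library, at r = 0.602 for mir-143, 0.590 for mir-145a, 0.621 for mir-1a and 0.453 for mir-133a. Taken as single copies, mmu-mir-1a-1 and mmu-mir-1a-2 had the lowest r among 15 pairs, 0.406, and -0.06 relative to miRNA reads.

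Ratios between members do not depend on the library size. mir-143 had a median of 12.1 reads for each mir-145a read (6.54 to 22.9 over 38 mice). There were 5.69 mir-1a reads for each mir-133a read (1.60 to 19.5 in the 36 mice with any mir-133a read), and 21.9 mir-143 reads for each mir-1a read (13.1 to 73.0). The extremes of the last 2 ratios rested on few reads. The 73.0 came from mouse 02A8, with 292 reads against 4, the 19.5 from 14A4, with 78 against 4, and the 1.60 from 02A6, with 16 against 10. Median ratios of mir-143 to mir-145a were 11.7, 12.1, 11.2 and 13.2 in CTCT, CTPR, PRCT and PRPR mice.

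The miRNAs most like the members over the 38 mice came from no single cell type list. Likeness was taken as Spearman's rho of reads scaled to the miRNA total among 124 other miRNAs with a mean of at least 50 reads, and it is a description. On this scale pairs of members, with copies summed, had rho of 0.517 to 0.711, and some of the other miRNAs below were closer to a member than that. For mir-143 the closest were mmu-mir-101a (rho = 0.701), mmu-mir-200a (0.690), a miRNA of epithelial cells, and mmu-mir-30a (0.656). For mir-145a they were mmu-mir-1839 (0.758), mmu-mir-96 (0.721) and mmu-mir-141 (0.712), the last also epithelial. mir-1a summed was closest to mmu-mir-200a (0.770), mmu-mir-30a (0.750) and mmu-mir-101a (0.690). mir-133a summed was closest to mmu-mir-29a (0.782), which is on the list of stromal and vessel miRNAs, mmu-mir-96 (0.757) and mmu-mir-141 (0.715). Leading miRNAs of the same list took different places. mmu-mir-200a was also close to mir-145a (rho = 0.712, place 4) and to mir-133a (0.688, place 8). mmu-mir-200c, the other abundant epithelial miRNA, had rho of 0.147 with mir-143 (place 44 of 124), 0.370 with mir-145a, 0.177 with mir-1a and 0.267 with mir-133a. Values for the stromal and vessel list follow in the order mir-143, mir-145a, mir-1a and mir-133a. mmu-mir-21a had rho of 0.512 (place 10), 0.397, 0.555 and 0.596. For mmu-mir-10b rho was -0.05, 0.08, 0.05 and 0.13, and for mmu-mir-199a-1 0.166, 0.235, 0.198 and 0.408. mmu-mir-126a, the marker of endothelium, had 0.330, 0.473, 0.477 and 0.516. The germ cell miRNA mmu-mir-34c gave values near 0, 0.09 with mir-143 and -0.01 with mir-1a, and mmu-mir-881 gave -0.23 and -0.40. Libraries with few miRNA reads enter all these values.

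Other miRNAs known from muscle were rare or had no read. Of 10 further hairpins, 7 had any read, and none reached a mean of 10 reads. mmu-mir-208a and mmu-mir-208b, encoded within heart and skeletal myosin genes, and mmu-mir-133c had 0 reads in 38 mice, which allows up to 0.0125 RPM over the 239980375 reads together. mmu-mir-206, a miRNA of skeletal muscle related to mir-1, had 7 reads in 5 mice. mmu-mir-133b had 59 reads in 17 mice, and mmu-mir-499, a miRNA of slow and cardiac muscle, 103 reads in 21 mice. mmu-mir-486b and mmu-mir-486a, which are also made in red blood cells, had 265 reads in 30 mice and 194 reads in 29. mmu-mir-145b had 19 reads in 8 mice and mmu-mir-1b 6 reads in 4. The skeletal and cardiac relatives were thus at or near 0 where mir-1a and mir-133a were not. Members were also absent, 0 reads in every mouse, from the miRNA reads that did not match the genome, which numbered at most 60 per mouse.

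miRNAs known from other cell types stood beside the members at these levels. Over all mice, 16 of 17 stromal and vessel miRNAs had reads and their sum was 103 to 6483 RPM, led by mmu-mir-21a and mmu-mir-10b. The sum had a median of 1416 in CTCT, 2478 in CTPR, 1047 in PRCT and 1084 RPM in PRPR mice. All 8 epithelial miRNAs had reads, 42.2 to 2349 RPM in sum, led by mmu-mir-200a and mmu-mir-200c. Medians were 551, 1109, 413 and 479 RPM in the order CTCT, CTPR, PRCT and PRPR, and the highest was again in CTPR. The 7 blood miRNAs summed to 5.50 to 95.2 RPM, led by mmu-mir-223 and mmu-mir-142a, with medians of 27.7, 39.5, 23.5 and 20.6 RPM in the same order. Testis and sperm miRNAs, 21 hairpins of 20 names, summed to 50.03 to 2940 RPM, and their leading members mmu-mir-34c and mmu-mir-881 had reads in every mouse. Their summed medians were 699, 1684, 1021 and 837 RPM, so all 4 lists, like mir-143, had their highest median in CTPR. For CTPR against CTCT the median log2 difference was 0.93 over 15 stromal miRNAs tested, 0.78 over 8 epithelial ones, 0.97 over 19 testis and sperm ones and 0.79 over all 200, and none was called. Relative to the miRNA total the medians were 0.02, 0.01, 0.32 and 0.06 in the same order, with 19 of the 19 testis and sperm values positive, and none was called. The part of other cell types in the members' levels was not tested.

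The hairpins lie in 3 clusters (GRCm38, GENCODE annotation). Mir143, at chr18:61649196-61649258 on the minus strand, and Mir145a, at chr18:61647825-61647894 on the same strand, have 1301 bases between them. They lie beside the long non-coding RNA gene Carmn, which is annotated at chr18:61649625-61665537 on that strand. Mir1a-1, at chr2:180389048-180389124, and Mir133a-2, at chr2:180398379-180398482, are on the plus strand with 9254 bases between them. Mir133a-1, at chr18:10782909-10782976, and Mir1a-2, at chr18:10785481-10785552, are on the minus strand with 2504 bases between them, inside the span of the protein-coding gene Mib1 on the opposite strand and of the non-coding gene Mir133a-1hg on their own. Mir1b overlaps Mir1a-2 on the opposite strand.

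Levels of the members also followed the number in the mouse identifier that names the litter. This number is not described as a batch in the labels. Over 21 litter means, mir-143 correlated with it at r = 0.793 (rho = 0.681, adjusted permutation p = 9.0e-05 over 9 relations), mir-145a at r = 0.832, mir-1a at 0.776 and mir-133a at 0.780. The miRNA percentage of the library gave r = 0.750. In 9 mice of the 5 litters numbered under 20, mir-143 was at 55.9, 350 and 590 RPM (lowest, median and highest), and in the 29 mice of the other 16 litters at 451, 1584 and 7579. As a share of miRNA reads the relation of mir-143 was weaker, r = 0.529, and 0.268 without the 2 farthest litters, so it rested on those litters. The shares of mir-145a, mir-1a and mir-133a gave r of 0.618, 0.617 and 0.591. Without the 2 farthest litters these were 0.526, 0.402 and 0.438. With litter number as a covariate, the CTPR difference of mmu-mir-143 was 0.62 on the log2 scale (SE 0.43, adjusted p = 0.929). Without the litters numbered under 20 it was 0.90 (SE 0.40, unadjusted p = 0.0315, adjusted p = 0.542). All 4 diet groups held both kinds of litter. What the number stands for was not tested.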

How the data were processed

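Small RNA of sperm from 38 mice was analysed. The authors mapped reads to mm10, the build in the submitters' processing notes, and to miRNA, tRNA, piRNA and rRNA collections with the SPORTS pipeline, and deposited raw read counts, 1 table per mouse, for each class and each entry within it, with no scaling and no mice pooled. Collection versions and the rule for reads shared by copies are not given in the sources used here. Diet groups came from the sample labels. For littermates 47I1 and 47I2 the study's own list gives the groups exchanged, and both readings were run.

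Members, lists and tests were chosen with earlier results of these data known. Features with a mean of at least 10 reads (7002, of which 200 miRNAs) entered the quasi-likelihood test of edgeR 4.0.16 under R 4.3.3 (glmQLFTest after glmQLFit, all 38 mice in 1 fit, Benjamini-Hochberg adjustment, threshold 0.05), with genome-matching reads as library size, and the miRNAs again with the miRNA total. Scripts in Python 3.11.15 gave levels, permutation tests (exact, or 100000 resamples) and correlations of log2(RPM + 1). Named miRNAs were the members, the other muscle list, the 2 most abundant of each other list and the 3 most alike to each member. mmu-mir-126a, mmu-mir-148a and the miRNAs with a pair of copies were named after their values were seen.

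The fits were tested on simulated counts. Mice of a litter were paired by the litter in the mouse identifier. Over 7002 features the deviations of 17 littermate pairs from their group means correlated at a median of 0.024 (-0.0168 to 0.296, above 0.1 in 3 pairs), and over 200 miRNAs at a median of 0.173. Alternatives were another library size, TMM, DESeq2 1.42.0, other filters, litter as a block (only in litters with a mouse on each diet), other pseudocounts and leaving out mice. Summing copies, litter number and permutation over mice were chosen after seeing the data.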

Additional observations from a re-analysis of the deposited data

Results flagged for a closer look

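Of 64 sets of values (each member or summed pair, group and scale), 4 held a mouse far from the others of its group. Chance alone would give about 1 in 20 for independent sets. These sets overlap, as copies, their sums and both scales share the same mice, and values were taken without a log transform. mmu-mir-143 reached 7579 RPM in CTPR mouse 57P1, against 3569 in the next mouse and a group median of 2272. The same mouse had 273 RPM of mmu-mir-1a-2, with the next at 103. It also had the highest percentage of miRNA reads of all libraries, 5.55%, and its share of mmu-mir-143 in miRNA reads, 13.7%, was not far from the others by this measure. In the PRCT group, mouse 39F5 had 107 RPM of mmu-mir-1a-1, with the next at 55.4, and 11.96 RPM of mmu-mir-133a-1, with the next at 5.01. Values of single copies are uncertain for the reason given above. What set these mice apart was not tested.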

How the results depend on the processing

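No member was called under any alternative except 1. With no filter, over 638403 features, mmu-mir-143 was called for CTPR against CTCT (0.99, adjusted p = 1.12e-19, SE 0.10) and for the interaction (-1.14, adjusted p = 2.26e-12), 1 member in each, while an exact permutation over mice gave p = 0.369 for the first. The cause was not tested. Counts of all features called moved far more. For CTPR against CTCT the 5 became 0 with TMM, filterByExpr, miRNAs alone, mice 07C3, 35F2, 31A3 and 08G5 left out, litter as a block (copies summed or not), litter number as a covariate or litters under 20 left out, 1 with a mean of at least 50 reads, 3 without litter 47I, 37 with DESeq2 and 2256 with no filter. For PRCT against CTCT the 0 became 46 with DESeq2 and 198 with no filter. For PRPR against CTCT the 1 became 0 with miRNAs alone, 2 with TMM, without litter 47I or with litter number, 34 with DESeq2 and 267 with no filter. For PRPR against PRCT the 1 became 0 with a mean of at least 50 reads, miRNAs alone and litter as a block (copies summed or not), 31 with DESeq2 and 209 with no filter. For the interaction the 67 became 25 with TMM, 19 with a mean of at least 50 reads, 1 with filterByExpr or without litters under 20, 0 with miRNAs alone, 8 without those 4 mice, 17 with litter number and 2703 with no filter. With each mouse left out in turn, the 3 counts that moved ran from 0 to 6 for CTPR against CTCT, from 1 to 2 for PRPR against CTCT and from 16 to 76 for the interaction, and no member was called in 38 fits.

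The block by litter changed no call of a member. On the miRNA scale no feature was called under any alternative. Relations between members with an adjusted p under 0.05 fell from 15 to 8 of 15 relative to miRNA reads, those with other classes from 17 to 5 of 24, or from 13 to 7 of 16 with copies summed. Among uncalled values signs turned under some alternatives, in at most 4 for a member and contrast, not counting the fits with a single mouse left out. In those fits signs turned as well, with mmu-mir-143 in PRCT against CTCT at -0.23 to 0.21 on the RPM scale. Without those fits, signs on the RPM scale turned in 3 of 13 for mmu-mir-1a-1 in CTPR against CTCT, 4 of 13 for mmu-mir-145a and 3 of 13 for mmu-mir-143 in PRCT against CTCT, and 3 of 11 for mmu-mir-133a-1 in the interaction. Relative to miRNA reads they turned in 3 alternatives each for mmu-mir-143, mmu-mir-145a and mmu-mir-133a-2 in CTPR against CTCT. At a median near 4 RPM, depth limits what can be said of mmu-mir-133a-1 and mmu-mir-133a-2.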
